A study of Mus musculus with 24 samples.

Results

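The transcriptome of mouse hepatic stellate cells given the REV-ERB agonist SR9011 together with TGFb was compared with that of cells given TGFb and no SR9011. The comparison rests on 6 of the 24 RNA-seq libraries of the study, chosen by treatment alone: the 3 libraries of each of the 2 groups, set against each other on log2(FPKM + 1) across all genes. All cells were of 1 line, EMS404, which came from C57Bl6 mouse liver, was immortalised with SV40 and expresses human TLR4, so that all groups share this background. The whole study held 8 groups of 3, with vehicle, SR9011, the TGFb receptor inhibitor SB431542 or CLK8, which disrupts the CLOCK:BMAL1 dimer, each without and with TGFb. In the group called SR9011+TGFb, cells had SR9011 for 24 h and then SR9011 with 10 ng/mL TGFb for a further 24 h. In the group called TGFb, the library names give DMSO in place of a compound, and TGFb was at 10 ng/mL for 24 h. The vehicle group, labelled untreated but with DMSO in its library names, and the SR9011 group had no TGFb and were used to ask whether SR9011 acted differently under TGFb. No source used here states the compound doses or how long the groups without TGFb were kept. The replicates are called biological by the submitters, with no statement of separate cultures or days, so p-values measure the spread between these samples of 1 line.

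Hepatic stellate cells store retinoids in the healthy liver and turn into contractile, collagen-producing myofibroblasts when activated, a change that TGFb drives through its receptor kinases and SMAD proteins. REV-ERBα and REV-ERBβ, encoded by Nr1d1 and Nr1d2, are haem-binding nuclear receptors that repress transcription, including that of Arntl, the gene of the clock activator BMAL1. BMAL1 and CLOCK in turn activate the Per, Cry and Nr1d genes through E-box sequences, which closes the negative loop of the circadian clock.

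The 6 libraries were of like breadth, with 10780 to 10809 genes at 1 FPKM or more and 5.61% to 6.85% of all FPKM in the 10 highest genes. Read counts were not used here, and the relative depth read from the smallest steps of 49 to 68 low genes was 0.984 to 1.03. Summed FPKM was 522138 to 528289 in the TGFb libraries and 553508 to 565731 in the SR9011+TGFb libraries, so the groups did not overlap in this total. Of the markers that define stellate cells, Col1a1, Col3a1, Pdgfrb, Dcn, Hand2 and Acta2 were well above 1 FPKM, whereas Reln was at 0 and Des was under 1 FPKM. Of the hepatocyte markers, Ttr, Cps1 and Hnf4a were at 0 in all 6 libraries, and the 5 that were measured summed to at most 0.1 FPKM. Macrophage and leukocyte markers summed to 1.24 to 1.76 FPKM with TGFb and 2.3 to 2.42 FPKM with SR9011+TGFb, and endothelial markers to 1.3 to 1.49 and 2.69 to 3.38 FPKM. Cholangiocyte markers summed to 7.41 to 8.7 FPKM with TGFb and 2.72 to 3.3 FPKM with SR9011+TGFb. The 10 mesothelial and portal fibroblast markers summed to 406.06 to 431.53 FPKM with TGFb and 260.9 to 269.9 FPKM with SR9011+TGFb, with Cd34 the highest member, and the part of these shifts in the results below was not tested. In bulk RNA, fewer cells of a type and less RNA per cell cannot be told apart.

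SR9011 changed most of the measured transcriptome of TGFb-treated cells, and most of the changes were small. Of 11297 genes tested, 4158 (36.8%) were higher and 2713 (24.0%) lower in SR9011+TGFb than in TGFb at an adjusted p under 0.05 (limma, Benjamini-Hochberg), which makes 6871 genes called (60.8%), and 4426 did not pass. Only 423 genes (3.74%) passed with a difference of at least 2-fold, 231 higher and 192 lower, and 15 were higher and 24 lower by at least 4-fold. In 7881 genes (69.8%) the 3 libraries of one group all lay above the 3 of the other. The median log2 difference over all tested genes was 0.05, with a median standard error of 0.064. The excess of rises over falls depended on how libraries were scaled: 60.5% of called genes were higher on FPKM, 45.8% after rescaling to TPM (3078 higher, 3645 lower) and 48.7% after quantile normalization (3388 higher, 3563 lower). Small differences near 0 are therefore read below as values, and lists whose direction turned with the scaling are named. Counts within gene lists are to be read against the 36.8% higher and 24.0% lower of all tested genes. For list counts under TPM these shares were 27.2% and 32.3%, and under quantile normalization 30% and 31.5%. Of the 196 genes singled out by rule, 23 share exon sequence with another measured gene. Among those below they are Avil with Tsfm, Nr1d1 with Thra, Dbp with Sphk2, Ddit3 with Mars, Ppp1r15a with Tulp2, Cxcl10 with Art3, Pltp with Ctsa, Hexa with Tmem202, Npc1 with Rmc1, Tagln with Pcsk7, Mfap4 with Mapk7, Pcolce with Fbxo24, Fkbp10 with Nt5c3b, Ccne2 with Ints8, Tpi1 with Spsb2, Ctsw with Fibp and Lgals2 with Cdc42ep1. No source used here states whether counting used the strand, so reads of such pairs may be shared.

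**Figure D1:**
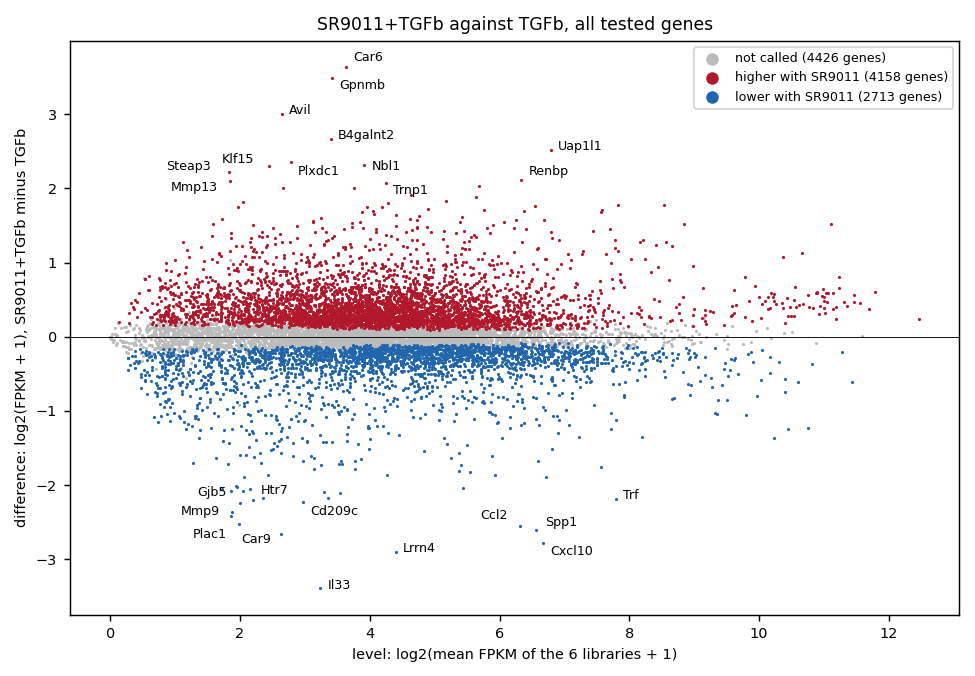
Each point is 1 of 11297 tested genes, with its level over the 6 libraries as log2(mean FPKM + 1) on the horizontal axis and the log2(FPKM + 1) difference, SR9011+TGFb minus TGFb, on the vertical axis. Red genes were called higher (4158), blue genes lower (2713) and grey genes were not called (4426), and the 12 largest rises and falls with non-overlapping groups are labelled, from Car6 at 3.64 to Il33 at -3.40.

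The largest rises were in genes of mixed function, several of them at about 1 FPKM or less under TGFb alone. These 12 were taken only from called genes whose groups did not overlap. Car6, a secreted carbonic anhydrase, measured 0.77, 0.76 and 0.81 FPKM in the TGFb libraries and 16.8, 31 and 18.1 FPKM in the SR9011+TGFb libraries, a log2 difference of 3.64 (SE 0.155, limma adjusted p = 1.33e-14). Gpnmb, a glycoprotein of lysosomes and melanosomes, measured 0.7, 0.76 and 0.81 FPKM and then 19.6, 18 and 18.5 FPKM, a log2 difference of 3.49 (SE 0.108, limma adjusted p = 3.73e-17). The groups lay far apart for both genes, with the 3 SR9011+TGFb libraries close together for Gpnmb and replicate 2 highest for Car6. Klf15, a Krüppel-like factor tied to clock and glucocorticoid control of metabolism, rose from 0.63, 1.04 and 0.87 FPKM to 7.48, 8.46 and 8.26 FPKM, a log2 difference of 2.30. Uap1l1, which resembles the enzyme that makes UDP-N-acetylglucosamine, was the most abundant of the 12 and rose from 28.7, 32.4 and 34.3 to 183, 185 and 193 FPKM (log2 difference 2.52). Renbp, the renin-binding protein that also epimerises N-acetylglucosamine, rose from 27.9, 30 and 30.1 to 127, 129 and 132 FPKM (2.11). Neither gene had any TGFb library near an SR9011+TGFb library. The other rises were Avil (3.0), B4galnt2 (2.66), Plxdc1 (2.35), Nbl1 (2.32), the endosomal iron reductase Steap3 (2.22), Mmp13 (2.09) and Trnp1 (2.07).

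The 12 largest falls included 3 cytokine or chemokine genes, Il33, Cxcl10 and Ccl2. Il33, an alarmin of the interleukin-1 family, measured 16.3, 17.1 and 15.3 FPKM with TGFb and 0.79, 0.51 and 0.62 FPKM with SR9011+TGFb, a log2 difference of -3.40 (SE 0.103, limma adjusted p = 2.36e-17). Cxcl10, which attracts T cells, fell from 162, 176 and 192 FPKM to 28.8, 21.5 and 24.7 FPKM (-2.78). Ccl2, which attracts monocytes, fell from 130, 139 and 133 FPKM to 27.5, 16.8 and 23.3 FPKM (-2.55). In each of the 3 the lowest TGFb library was more than 4 times the highest SR9011+TGFb library. Spp1, the matrix phosphoprotein osteopontin, fell from 180, 142 and 162 FPKM to 29.7, 21.8 and 25.9 FPKM (-2.60). Trf, transferrin, fell from 356, 368 and 364 FPKM to 93.5, 63.4 and 81.9 FPKM (-2.19). Lrrn4, a gene used here as a mesothelial marker, fell from 35.2, 36 and 37.8 FPKM to 4.49, 3.84 and 3.6 FPKM (-2.91). As for the rises, the falls were taken only from called genes with non-overlapping groups. The remaining falls were the hypoxia-induced carbonic anhydrase Car9 (-2.66), Plac1 (-2.52), the gelatinase Mmp9 (-2.41), the connexin Gjb5 (-2.24), Cd209c (-2.23) and the serotonin receptor Htr7 (-2.20).

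**Figure D2:**
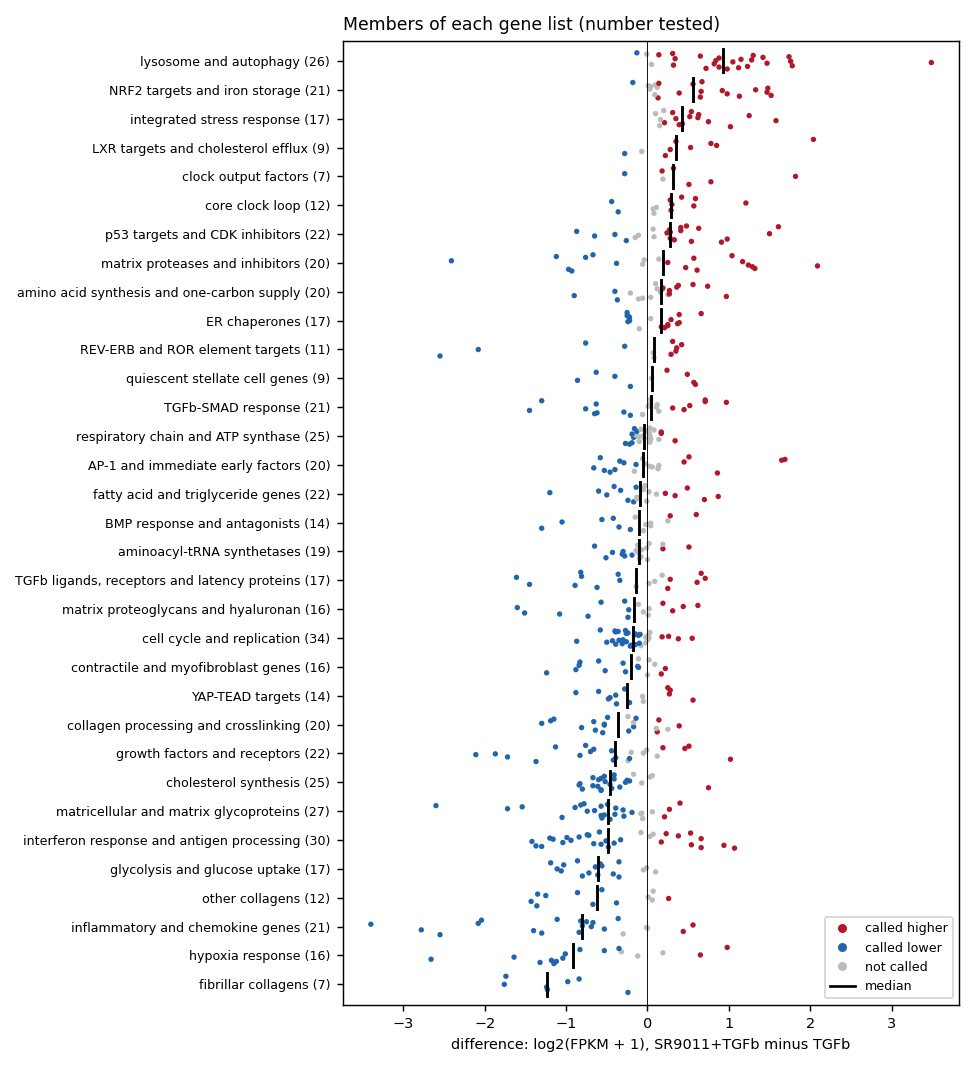
Each row is a gene list with the number of members tested, each point a member placed by its log2(FPKM + 1) difference, SR9011+TGFb minus TGFb, coloured red when called higher, blue when called lower and grey when not called, with the list's median as a black bar. Lysosome and autophagy genes (median 0.93) lie at the top and fibrillar collagens (median -1.23) at the bottom, against 0.05 for all tested genes.

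Clock genes moved in both directions with SR9011: Per1 and Hlf rose, Per2, Ciart and Nfil3 fell, and Arntl did not pass. Of 12 core clock genes tested, 7 rose, 2 fell (Per2 and Ciart, the latter at -0.36) and 3 did not pass, with a median log2 difference of 0.29, and of 7 clock output factors 5 rose and 1 fell (median 0.32), where 36.8% of all genes tested rose. After rescaling to TPM the rises were 5 of 12 core clock genes (median 0.22) and 3 of 7 output factors (median 0.24). Under TPM 27.2% of all tested genes rose. Per1, a repressor of BMAL1 and CLOCK, measured 6.77, 7.38 and 6.68 FPKM with TGFb and 16.7, 17.1 and 18.3 FPKM with SR9011+TGFb, a log2 difference of 1.21 (SE 0.060, limma adjusted p = 5.95e-14). Per2, its paralogue, measured 3.33, 3.57 and 3.63 FPKM and then 2.42, 2.29 and 2.29 FPKM, a log2 difference of -0.44 (SE 0.066, limma adjusted p = 4.90e-06). The paralogues thus moved in opposite directions, each with groups that did not overlap, as in 69.8% of all tested genes. Arntl measured 11.5, 11.3 and 10.8 FPKM with TGFb and 12.2, 11.1 and 12.4 FPKM with SR9011+TGFb, overlapping groups with a log2 difference of 0.08 (SE 0.051, limma adjusted p = 0.182). Nr1d1, which encodes REV-ERBα, rose from 2.58, 2.66 and 2.91 FPKM to 4.83, 4.34 and 4.43 FPKM (0.57). Nr1d2 rose by 0.30 and Clock by 0.29, and both were no longer called after rescaling to TPM (log2 0.22 for each), nor Nr1d2 under quantile scaling (0.20) or without TGFb replicate 2 (0.26). Hlf, an output factor of the PAR bZIP family, rose the most of these genes, from 0.88, 0.72 and 0.81 FPKM to 6.11, 4.23 and 5.96 FPKM (1.82). Its relatives stood apart from it: Tef rose by 0.18, which was lost under TPM and quantile scaling (0.09 for each), and Dbp was at 0.19 with overlapping groups and an adjusted p of 0.0892 (limma). Nfil3, a repressor that competes with the PAR factors for their sites, fell from 29, 29.1 and 29.2 FPKM to 24.9, 22.2 and 24.2 FPKM (-0.28). Bhlhe41 rose (0.78), as did Rora (0.59), Wee1 (0.32) and Per3 (0.28), while Cry1 (0.07) and Cry2 (0.11) did not pass. Bhlhe40 passed at 0.51 (limma adjusted p = 0.0215), but not under TPM (0.43), without SR9011+TGFb replicate 2 (0.49), without TGFb replicate 1 (0.46) or without TGFb replicate 3 (0.48). Among 11 further genes with reported REV-ERB or ROR elements, 5 rose and 4 fell, Il6 and Ccl2 by far the most (-2.08 and -2.55), and the median of 0.08 became -0.01 under TPM and -0.02 under quantile scaling.

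**Figure D3:**
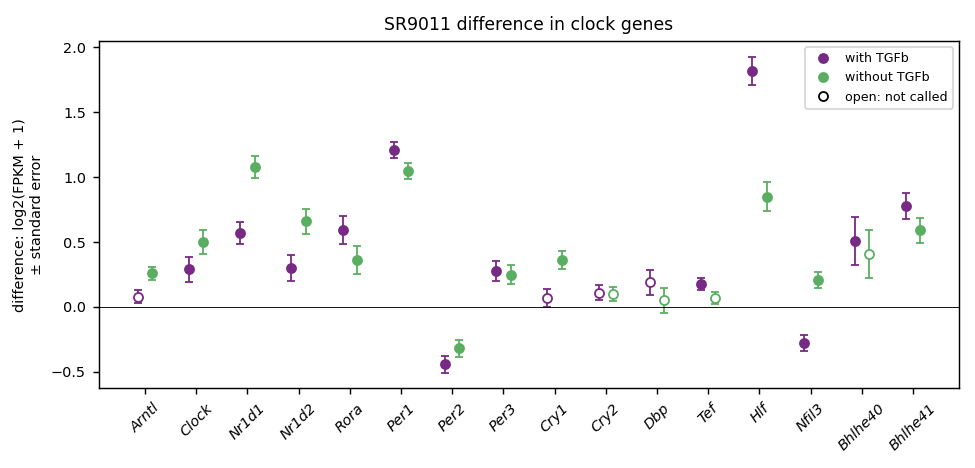
The vertical axis is the log2(FPKM + 1) difference ± standard error for 16 clock genes, in purple for SR9011+TGFb minus TGFb and in green for SR9011 minus vehicle, with 3 libraries in each group and open circles where the gene was not called. Hlf (1.82) and Per1 (1.21) stand highest with TGFb, and Per2 (-0.44) and Nfil3 (-0.28) lie below 0.

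The sequences upstream of Arntl and Per1 are shown because these genes carry the textbook REV-ERB and CLOCK:BMAL1 sites and responded differently. They span 250 bases before to 50 after an annotated start (RefSeq, GRCm38.p6), Arntl at chr7:113207261-113207560 and Per1 at chr11:69098699-69098998, both on the plus strand and 1 of 2 starts listed for the gene. Motifs were searched on both strands, and capitals mark the E-box CACGTG, the REV-ERB and ROR core AGGTCA and the antioxidant response element core TGACNNNGC.
Arntl: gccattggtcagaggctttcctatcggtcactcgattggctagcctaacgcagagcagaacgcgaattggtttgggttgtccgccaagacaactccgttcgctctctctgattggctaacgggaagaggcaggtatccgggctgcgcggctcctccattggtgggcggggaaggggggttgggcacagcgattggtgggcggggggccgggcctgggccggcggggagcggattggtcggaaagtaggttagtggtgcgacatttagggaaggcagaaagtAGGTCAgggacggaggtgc
Per1: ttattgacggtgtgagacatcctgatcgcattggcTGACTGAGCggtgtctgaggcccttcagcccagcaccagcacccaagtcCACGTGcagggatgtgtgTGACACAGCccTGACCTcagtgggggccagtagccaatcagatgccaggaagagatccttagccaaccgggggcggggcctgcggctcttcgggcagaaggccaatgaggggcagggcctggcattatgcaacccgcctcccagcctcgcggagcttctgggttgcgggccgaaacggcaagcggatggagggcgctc
In the Arntl window the REV-ERB core begins at base 32 after the start. In the Per1 window the E-box begins at -166, a REV-ERB core on the minus strand at -137, and antioxidant response cores at -215 and -148. An E-box is in 7.15% of all 32851 promoter windows, a REV-ERB core in 16.3% and an antioxidant response core in 12.4%. The paired site known as RevDR2 was in 3 of all windows (0.00913%) and in none of the windows of tested genes. A match describes letters in these windows and is neither a bound site nor a cause. By gene, an E-box was in 42 of 179 genes with a window that rose at least 2-fold (23.5%), in 12 of 147 that fell at least 2-fold (8.16%) and in 1081 of 8993 tested genes (12%). The REV-ERB core was in 18.4%, 19.7% and 14.5% of the same sets.

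TGFb pathway genes split. Of 21 TGFb-SMAD response genes tested, 6 rose, 8 fell and 7 did not pass, where 36.8% of all tested genes rose and 24.0% fell. The median of 0.04 became -0.05 under TPM and -0.03 under quantile scaling. Pmepa1, an immediate SMAD target that restrains the pathway, measured 69.6, 70.4 and 74.8 FPKM with TGFb and 94.8, 100 and 99.1 FPKM with SR9011+TGFb, a log2 difference of 0.45 (SE 0.063, limma adjusted p = 2.00e-06). The 3 SR9011+TGFb libraries all lay above the 3 TGFb libraries, and 69.8% of all tested genes had such non-overlapping groups in either direction. Smad7, the inhibitory SMAD, was at 7.38, 8.33 and 8.17 FPKM and then 7.69, 8.09 and 8.3 FPKM (log2 difference 0.01, limma adjusted p = 0.897). Ccn2, a matricellular TGFb target, was at 181, 166 and 176 FPKM and then 189, 135 and 183 FPKM (-0.06, SE 0.258, limma adjusted p = 0.867). For both genes the groups overlapped. Tgif1, a corepressor of SMADs, rose (0.71), and Tgfbi (-1.30), the cell cycle inhibitor Cdkn2b (-0.65) and the latency protein Ltbp2 (-1.45) fell. Among ligands, receptors and latency proteins 5 of 17 rose and 8 fell (median -0.14). The ligand gene Tgfb1 rose from 26.3, 27.3 and 28.6 FPKM to 43.7, 46.6 and 45.6 FPKM (0.71), whereas Tgfb2 fell from 9.89, 9.25 and 9.8 FPKM to 2.89, 2.22 and 2.37 FPKM (-1.61). Ltbp1 fell by 0.89 on the log2 scale, and the receptor Tgfbr1 was at 0.18 (limma adjusted p = 0.0756). In the BMP list 2 of 14 rose and 6 fell (median -0.10), with falls of the ligand Bmp2 (-1.30), the antagonist Fst (-1.05) and the target Id1 (-0.56) and a rise of Smad9 (0.60).

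Matrix genes were lower with SR9011, fibrillar collagens without exception among those tested. All 7 fibrillar collagens fell (background of falls 24.0%), with a median log2 difference of -1.23. Col1a1, the main chain of type I collagen, measured 2230, 2415 and 2617 FPKM with TGFb and 1047, 1006 and 1028 FPKM with SR9011+TGFb, a log2 difference of -1.23 (SE 0.082, limma adjusted p = 9.34e-12). Col3a1, the chain of type III collagen, measured 263, 310 and 301 FPKM and then 92.7, 80.3 and 83.4 FPKM, a log2 difference of -1.76 (SE 0.133, limma adjusted p = 4.12e-10). Both SR9011+TGFb groups also lay below the vehicle libraries, which were at 1511 to 1651 FPKM for Col1a1 and 183 to 198 FPKM for Col3a1. Col1a2 (-1.24), Col5a3 (-1.74), Col5a1 (-0.98) and Col5a2 (-0.84) fell as well. Of 12 other collagens, 8 fell and 1 rose (median -0.62), among them Col27a1 (-1.43), Col12a1 (-1.36) and Col6a2 (-1.35).

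Of 27 matricellular and matrix glycoproteins, 20 fell and 3 rose (median -0.49). Postn, periostin, fell from 44.1, 39.9 and 39.8 FPKM to 16, 10.8 and 14.2 FPKM (-1.54), which is still above the 1.05 to 1.38 FPKM of the vehicle libraries. Fn1, fibronectin, fell from 1660, 1724 and 1695 FPKM to 1002, 1029 and 1001 FPKM (-0.74), below the vehicle range of 1359 to 1430 FPKM. So the 2 genes ended on opposite sides of vehicle. Mfap4, a microfibril protein, fell from 15.7, 16.3 and 18.2 FPKM to 5.06, 3.63 and 4.54 FPKM (-1.72). Of 16 proteoglycan and hyaluronan genes 8 fell and 4 rose (median -0.17), and the hyaluronan synthase Has2 fell from 7.66, 7.71 and 6.85 FPKM to 2.02, 1.87 and 1.94 FPKM (-1.51). Ogn (-1.60), the hyaluronan receptor Cd44 (-0.73) and Sdc4 (-0.57) fell too.

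Collagen processing and crosslinking genes were mostly lower, 13 of 20 falling and 3 rising (median -0.36). The lysyl hydroxylase Plod2 fell from 87.5, 87.9 and 81.4 FPKM to 40.4, 35.5 and 38 FPKM (-1.15), and Pcolce (-1.19), P4hb (-0.66) and Fkbp10 (-0.64) fell. Lox, which crosslinks collagen, did not follow: it was at 525, 527 and 507 FPKM with TGFb and 571, 675 and 609 FPKM with SR9011+TGFb. The Lox groups did not overlap, yet the log2 difference of 0.25 (SE 0.119) missed the threshold (limma adjusted p = 0.0780) and passed it when only the 2 groups were fitted (0.00235) or with a replicate block (0.0287).

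Matrix proteases and their inhibitors moved in both directions, 10 of 20 higher and 7 lower (median 0.19), against 36.8% and 24.0% of all tested genes. The collagenase Mmp13 rose from 0.35, 0.43 and 0.31 FPKM to 5.03, 4.62 and 4.8 FPKM (2.09), and the membrane protease Mmp14 from 201, 196 and 210 FPKM to 474, 483 and 479 FPKM (1.24). Timp1, an inhibitor of these proteases, fell from 312, 310 and 285 FPKM to 145, 143 and 128 FPKM (-1.12), and Timp2, another inhibitor, rose from 191, 194 and 203 FPKM to 403, 414 and 400 FPKM (1.04). The 2 inhibitors thus moved apart, as did Mmp13 and Mmp9. Mmp11 (1.29), Ctsk (1.32) and Mmp3 (1.17) were also higher, named after their values were seen.

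**Figure D4:**
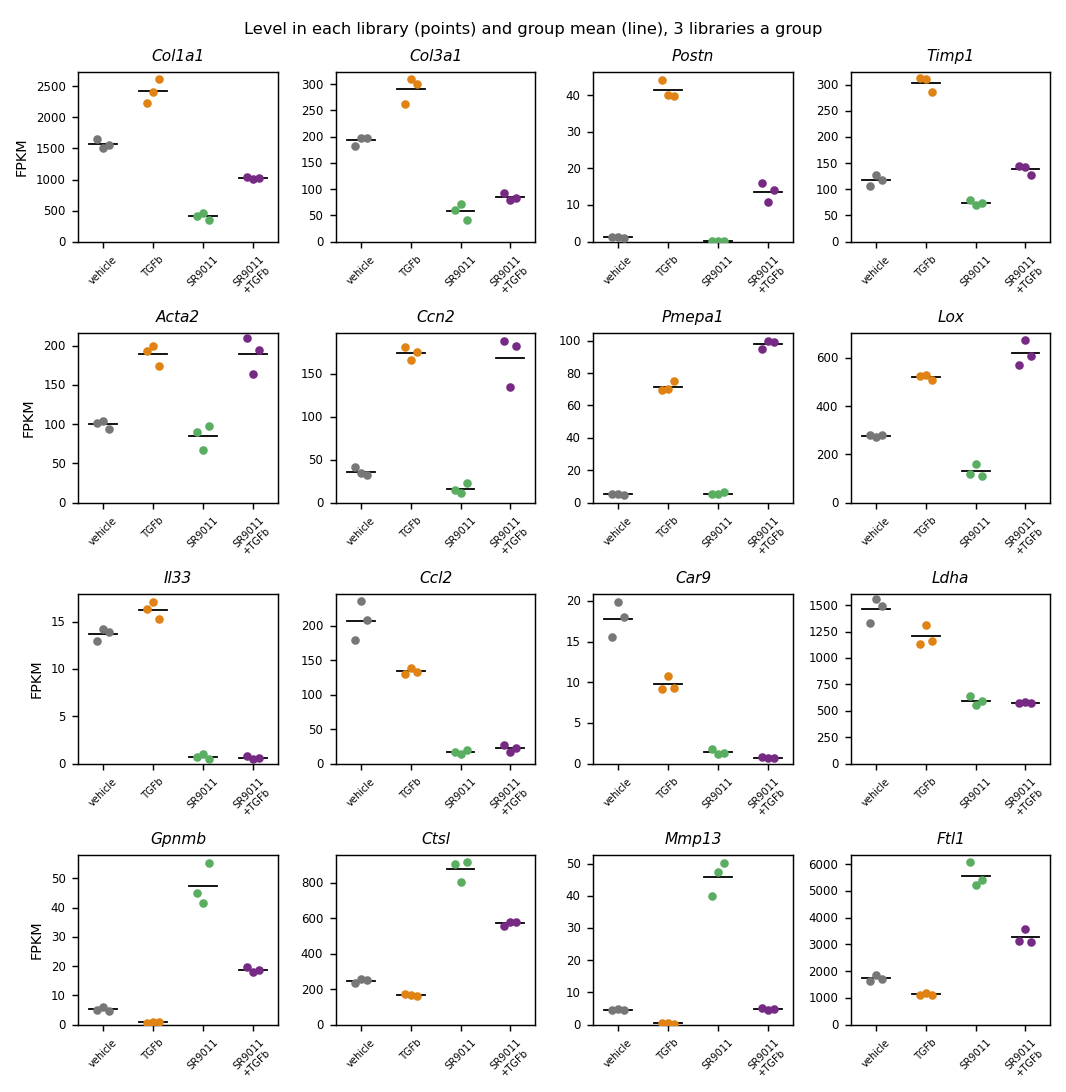
Each panel shows FPKM on a linear axis from 0 for 1 gene, with 1 point per library and a line at the mean of the 3 libraries of vehicle (grey), TGFb (orange), SR9011 (green) and SR9011+TGFb (purple). Col1a1 and Col3a1 with SR9011+TGFb lie below TGFb and vehicle, Acta2 and Ccn2 overlap their TGFb libraries, and Gpnmb, Ctsl and Ftl1 are highest with SR9011 alone.

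Contractile genes fell in part, 10 of 16 lower and 2 higher (median -0.20), while the marker most used for activated stellate cells did not pass. Acta2, smooth muscle actin, measured 193, 199 and 174 FPKM with TGFb and 209, 164 and 194 FPKM with SR9011+TGFb, overlapping groups with a log2 difference of 0.00 (SE 0.145, limma adjusted p = 0.986). Tagln, an actin-binding protein of smooth muscle, fell from 123, 117 and 118 FPKM to 73.9, 56.8 and 70.9 FPKM (-0.83, SE 0.169, limma adjusted p = 0.000295). Tpm1, a tropomyosin, fell from 662, 651 and 655 FPKM to 447, 414 and 441 FPKM (-0.60). Tagln and Tpm1 had no overlap between groups, which held for 69.8% of all tested genes but not for Acta2. Cnn1 (-1.24), the integrin Itga11 (-0.88) and Myl9 (-0.84) fell. Of 14 YAP-TEAD targets 8 fell and 4 rose (median -0.25), with Gadd45b at -0.88 and the receptor kinase Axl at 0.56. Genes of the quiescent state split, 4 of 9 higher and 4 lower, against 36.8% and 24.0% of all tested genes. Their median of 0.05 turned to -0.03 under TPM and -0.04 under quantile scaling. Gata4 (0.57) and the lipid droplet protein Plin2 (0.49) rose, and Hand2 fell (-0.86). Of 7 mesothelial and portal fibroblast markers tested, 6 fell, with Upk3b at -1.61 and Wt1 at -1.39. The other, Msln, rose from 7.16 to 8.41 FPKM to 24.6 to 32.9 FPKM (1.80).

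Inflammatory genes were lower with SR9011, 16 of 21 falling and 2 rising (median -0.80). Il6, a cytokine of the acute phase, measured 5.47, 4.82 and 4.29 FPKM with TGFb and 0.46, 0.28 and 0.41 FPKM with SR9011+TGFb, a log2 difference of -2.08 (SE 0.087, limma adjusted p = 2.81e-15). Csf1, the macrophage growth factor, fell from 102, 102 and 107 FPKM to 58.3, 56.2 and 57.6 FPKM (-0.84). Both had non-overlapping groups, as did 69.8% of all tested genes. For Il33, Ccl2 and Cxcl10 above, non-overlap was a condition of their choice. Interferon-response and antigen-processing genes fell in 18 of 30 and rose in 9 (median -0.49), and Psmb10 and the MHC class I members below moved apart. Under TPM 19 fell and 7 rose, and under quantile scaling 18 fell and 6 rose. Psmb10, a subunit of the immunoproteasome, fell from 24.3, 28.2 and 27 FPKM to 15.5, 13.2 and 14.3 FPKM (-0.84). Its fellow subunits did not fall, with Psmb9 higher (0.38) and Psmb8 not passing (0.03), and Tap1 (0.23) and Tap2 (0.53) rose. Of the interferon-response genes, Isg15 (-1.16), Ifit3 (-1.42) and Oas1a (-1.2) fell, while Bst2 (0.66) and Ifit2 (0.17) rose. Apart from Psmb10, these genes were named after their values were seen. B2m, the light chain of MHC class I, rose from 853, 888 and 805 FPKM to 1852, 1800 and 1692 FPKM (1.07), and H2-D1, a heavy chain from a family of close relatives, rose from 222, 248 and 240 FPKM to 446, 466 and 452 FPKM (0.94).

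Lysosome and autophagy genes rose as a group, 23 of 26 higher and 1 lower (background of rises 36.8%), with a median log2 difference of 0.93. Ctsl, the protease cathepsin L, measured 170, 166 and 163 FPKM with TGFb and 557, 580 and 579 FPKM with SR9011+TGFb, a log2 difference of 1.78 (SE 0.055, limma adjusted p = 2.36e-17). Hexa, a subunit of hexosaminidase A, rose from 40.7, 42.6 and 41.1 FPKM to 141, 144 and 144 FPKM (1.76). The lowest SR9011+TGFb library was more than 2 times the highest TGFb library in both. Lamp1 (1.28), Sqstm1 (1.30), Neu1 (1.74) and Mcoln1 (1.42) were also higher, named after their values were seen. Tfeb, the factor that drives many of these genes, was at mean levels of 8.94 and 8.89 FPKM and did not pass (-0.01), and Tfe3 passed at 0.14. The Ctsl window is shown because this gene had one of the smallest p-values of the list and its promoter holds an E-box, which is also the centre of the site bound by TFEB. It lies at chr13:64370471-64370770 on the minus strand, the only start listed, with capitals at the E-box CACGTG and at TGATGNAA, the C/EBP-ATF response element, here on the minus strand of the window.
Ctsl: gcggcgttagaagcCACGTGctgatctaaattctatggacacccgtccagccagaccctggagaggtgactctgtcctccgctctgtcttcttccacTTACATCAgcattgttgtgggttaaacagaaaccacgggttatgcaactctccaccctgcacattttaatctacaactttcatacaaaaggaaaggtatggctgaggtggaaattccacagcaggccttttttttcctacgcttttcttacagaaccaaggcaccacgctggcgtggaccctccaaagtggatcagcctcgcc
An E-box was in 6 of the 20 lysosome and autophagy genes with a window (30%), against 12% of tested genes, and in 4 of 11 aminoacyl-tRNA synthetases (36.4%). A part of the E-box in the rises was not tested.

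Of 9 LXR targets and cholesterol efflux genes 7 rose and 1 fell (median 0.35), among them the lipid transfer protein Pltp, from 17.6, 20 and 19.9 FPKM to 76.8, 89.6 and 79.3 FPKM (2.04), and the lysosomal cholesterol exporters Npc1 (0.85) and Npc2 (0.78). Under TPM the count was 5 higher and 2 lower, where 27.2% of all tested genes were higher and 32.3% lower. Of 25 cholesterol synthesis genes 20 fell and 1 rose (median -0.46). Mvk, the mevalonate kinase, fell from 28.4, 28.9 and 31.4 FPKM to 19.3, 19 and 19.2 FPKM (-0.60), and Acat2 fell (-0.57), while Ebp rose (0.75). The sterol regulatory element core TCACNCCAC was in the window of 1 of 17 of these genes (5.88%) and of 1.35% of tested genes. Fatty acid and triglyceride genes split into 5 higher and 8 lower of 22 (median -0.09), against 36.8% and 24.0% of all tested genes. The oxidation enzyme Cpt1a rose (0.87), and the elongase Elovl6 (-1.20) and the desaturase Fads2 (-0.60) fell.

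Genes of the antioxidant response and iron storage were higher, 14 of 21 rising and 1 falling (median 0.56). Nqo1, a quinone reductase, rose from 12.7, 13.7 and 12.4 FPKM to 35.5, 40.9 and 37.1 FPKM (1.48, SE 0.075, limma adjusted p = 7.65e-14). Hmox1, which breaks down haem, rose from 55.6, 67.8 and 64 FPKM to 149, 173 and 154 FPKM (1.33). Ftl1, the ferritin light chain, rose from 1092, 1185 and 1113 FPKM to 3121, 3577 and 3084 FPKM (1.52), with the caution that ferritin has many processed pseudogenes. The 3 genes rose by like amounts, with groups that did not overlap, as in 69.8% of all tested genes. An antioxidant response core was in 8 of 17 genes of the list with a window (47.1%) and in 17.1% of tested genes, and also in 8 of 18 growth factor and receptor genes (44.4%). The windows of Nqo1 and Ftl1 hold no such core. A part of this core in the rises was not tested.

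Integrated stress response genes were higher, with 13 of 17 called as rises, none as falls and a median of 0.43. Ddit3, the factor CHOP, measured 36.8, 36.6 and 38.9 FPKM with TGFb and 104, 125 and 113 FPKM with SR9011+TGFb, a log2 difference of 1.58 (SE 0.102, limma adjusted p = 1.19e-11). Ppp1r15a, which brings back translation by dephosphorylating eIF2α, rose from 15.3, 15.7 and 15.9 FPKM to 34.5, 44.5 and 37.5 FPKM (1.25), and Atf3 rose by 1.02. All 3 had non-overlapping groups, as did 69.8% of all tested genes. Of 20 amino acid supply genes 8 rose and 3 fell (median 0.17), with Cth at 0.97, the transporter chain Slc3a2 at 0.74 and Mthfd1l at -0.90. Aminoacyl-tRNA synthetases were at a median of -0.11, with 2 of 19 higher (Sars 0.51) and 7 lower (Tars -0.65). ER chaperone and quality control genes had 9 of 17 higher, such as Sel1l (0.66), and 6 lower. Under TPM this count became 6 higher and 7 lower, where 27.2% of all tested genes were higher and 32.3% lower. The windows of Ddit3 and Ppp1r15a hold no C/EBP-ATF element. The window of Atf3, a stress-induced bZIP factor, is shown because Atf3 rose and its window holds this element. It lies at chr1:191183284-191183583 on the minus strand, the only start listed, with capitals at TGATGNAA on the opposite strand of the window, beginning at -110.
Atf3: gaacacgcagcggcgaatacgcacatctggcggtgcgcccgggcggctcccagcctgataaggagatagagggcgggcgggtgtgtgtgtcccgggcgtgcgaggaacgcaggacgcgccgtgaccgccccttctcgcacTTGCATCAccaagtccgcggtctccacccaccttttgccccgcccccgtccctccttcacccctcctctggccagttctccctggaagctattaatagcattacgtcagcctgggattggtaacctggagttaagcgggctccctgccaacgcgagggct
This element was in 8 of 17 integrated stress response genes with a window (47.1%), in 2.67% of tested genes and in 3.97% of all windows. Its share was nearly as high in aminoacyl-tRNA synthetases, with 5 of 11 (45.5%), and was 20% in amino acid supply genes. Of 19 synthetases tested, 14 were higher and 1 lower with SR9011 against vehicle, and 18 higher and 1 lower with TGFb against vehicle. SR9011 against vehicle called 40.7% of all tested genes higher and 28.3% lower. TGFb against vehicle called 2311 of 11297 tested genes higher and 3888 lower. A part of the element in the differences of these lists was not tested.

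Among p53 targets and CDK inhibitors 14 of 22 rose and 4 fell (median 0.28). Gadd45a, a stress-induced growth arrest gene, rose from 30.4, 29.5 and 30.1 FPKM to 81.5, 99.2 and 80.5 FPKM (1.5), and Trp53inp1 (1.61), Cdkn1a (0.98) and Bax (0.91) rose. Of 34 cell cycle genes 23 fell and 4 rose (median -0.18), with modest sizes: Mki67, a proliferation marker, went from 66.2, 63.1 and 58.9 FPKM to 52.5, 52.3 and 52.1 FPKM (-0.26). Ccne2 (-0.87), Tyms (-0.58) and Bub1b (-0.39) fell, and E2f1 rose (0.55). Growth factors and receptors had 13 of 22 lower and 4 higher (median -0.40). Igf1 fell from 17.7, 17.8 and 16 FPKM to 4.95, 4.08 and 4.54 FPKM (-1.72), and Igfbp2 (-2.11) and Egfr (-1.37) fell, whereas Fgfr1 (1.02) and Pdgfrb (0.51) rose. Among 20 immediate early factors 5 rose and 8 fell (median -0.05), where 36.8% of all tested genes rose and 24.0% fell. Klf4 rose from 37.6, 38.1 and 38.6 FPKM to 119, 133 and 125 FPKM (1.69), and Klf2 by 1.65.

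Glycolysis and hypoxia genes were lower. None of 17 glycolysis genes rose and 14 fell (median -0.61). Ldha, lactate dehydrogenase, fell from 1136, 1317 and 1160 FPKM to 570, 580 and 575 FPKM (-1.06, SE 0.121, limma adjusted p = 1.08e-07), and Pfkl (-1.11), Tpi1 (-0.86) and Hk1 (-0.72) fell. Of 16 hypoxia-response genes 11 fell and 2 rose (median -0.92). Car9 fell from 9.16, 10.8 and 9.31 FPKM to 0.77, 0.69 and 0.63 FPKM, and Car12 by 1.18 on the log2 scale. The 2 that rose were Vegfa, from 83, 85.4 and 78.4 FPKM to 157, 170 and 161 FPKM (0.98), and Hif1a (0.65), the factor that controls the list. The respiratory chain and ATP synthase list was near 0 (median -0.04), with 3 of 25 higher and 7 lower. Under TPM this became 1 higher and 13 lower, where 27.2% of all tested genes were higher and 32.3% lower.

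The SR9011 difference was then set beside that in cells without TGFb, SR9011 minus vehicle, which shares no library with it. Across the 11297 genes the 2 differences had a Pearson r of 0.816 and a Spearman rho of 0.771, as a description across genes, which are not independent. SR9011 against vehicle called 69.1% of genes, 40.7% higher and 28.3% lower. Of the 6871 genes called under TGFb, 6156 had the same sign without TGFb, 5284 were called in the same direction and 254 in the opposite one. The interaction, the difference with TGFb minus that without, was called in 3607 genes (31.9%), 1875 positive (16.6%) and 1732 negative (15.3%). In 1734 of them the signs were shared and the difference was smaller under TGFb, in 640 it was larger under TGFb, and in 1233 the signs were opposite. The 3 SR9011 libraries without TGFb were the most spread of all groups, with a mean squared deviation on the log2 scale of 0.00925 to 0.0192 against 0.00346 to 0.00891 in the other groups, and the interaction was called in 3128 genes when only the 4 groups were fitted.

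**Figure D5:**
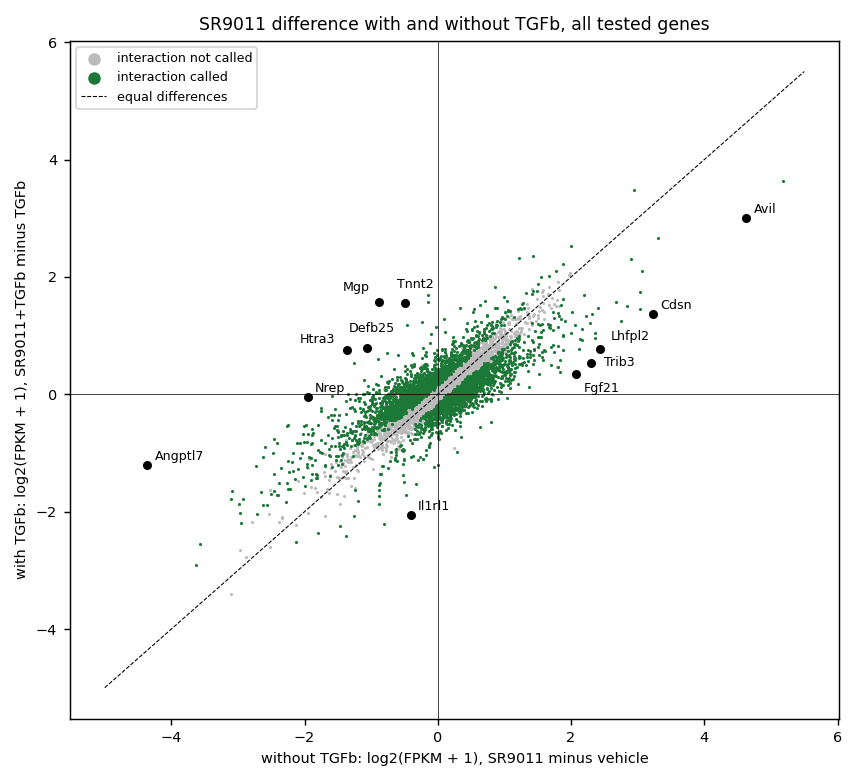
Each point is 1 of 11297 genes, with the log2(FPKM + 1) difference SR9011 minus vehicle on the horizontal axis and SR9011+TGFb minus TGFb on the vertical axis, green where the interaction was called and grey where it was not, and the dashed line marks equal differences. The 12 labelled genes, in black, have the largest called interactions, from Angptl7 (3.15) to Cdsn (-1.87).

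Stress and amino acid genes responded less to SR9011 under TGFb. The interaction was negative in 14 of 17 integrated stress response genes and positive in none, negative in 17 of 20 amino acid supply genes and in 18 of 19 tRNA synthetases. Trib3 measured 45.9, 43.3 and 47.5 FPKM with vehicle, 253, 211 and 222 with SR9011, 99.2, 108 and 107 with TGFb and 147, 163 and 150 with both, an interaction of -1.75 (SE 0.115, limma adjusted p = 2.80e-10). Fgf21, a stress-induced hormone, measured 4.06, 4.58 and 4.18 FPKM with vehicle, 24.1, 19.6 and 20.5 with SR9011, 36, 44.1 and 40.1 with TGFb and 49.1, 55.7 and 49.2 with both, an interaction of -1.73. In both genes the TGFb libraries were already above vehicle, and the libraries with both treatments above TGFb alone. ER chaperones had a positive interaction in 11 of 17 and a negative one in none. For Sdf2l1 the sign itself differed, with -0.41 without TGFb and 0.39 with TGFb. The lysosome list had a positive interaction in 16 of 26 and a negative one in 1, with medians of 0.66 without and 0.93 with TGFb. TGFb against vehicle was lower in 22 of these 26 genes and higher in 1 (median -0.34). Of all 11297 tested genes, 3888 were lower and 2311 higher with TGFb against vehicle.

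The 6 largest positive interactions were in Angptl7, Mgp, Htra3, Tnnt2, Nrep and Defb25. Mgp, an inhibitor of calcification, measured 36.4, 44.1 and 37.3 FPKM with vehicle, 24.8, 17.6 and 20.5 with SR9011, 50.2, 47 and 48.8 with TGFb and 206, 92.5 and 163 with both, an interaction of 2.45 (SE 0.295, limma adjusted p = 6.23e-06). Tnnt2, cardiac troponin T, measured 0.65, 0.74 and 0.7 FPKM, 0.34, 0.15 and 0.13, 3.18, 3.75 and 3.31, and 11.9, 11 and 13.1 in the same order, an interaction of 2.05. Both rose under TGFb and fell without it. Angptl7 fell in both settings, from 21.8, 23.2 and 25 to 0.21, 0.18 and 0.16 FPKM without TGFb and from 19.1, 21 and 21.3 to 12, 4.8 and 9.6 FPKM with it, an interaction of 3.15. Angptl7 lies within the span of Mtor, with no shared exon. Lox fell without TGFb (-1.10), with an interaction of 1.35. Of the fibrillar collagens 2 had a positive and 2 a negative interaction, and Col3a1 was at -1.76 in both settings.

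Genes that TGFb itself moves were taken from libraries outside the comparison, CLK8+TGFb against CLK8. Of 205 genes (1.81% of those tested) raised at least 2-fold there, 123 were lower with SR9011+TGFb than with TGFb (all tested genes 24.0%), 39 higher (all tested genes 36.8%) and 43 not called. Their median log2 difference was -0.35 (all genes 0.05). TGFb against vehicle, which shares the TGFb libraries, had a median of 1.18 in these genes, and SR9011+TGFb against SR9011, which shares the SR9011+TGFb libraries, one of 1.17. In the same 205 genes the interaction was positive in 69 (all tested genes 16.6%) and negative in 67 (all tested genes 15.3%). Of 189 genes (1.67%) lowered at least 2-fold by TGFb in the CLK8 libraries, 70 were higher (all tested genes 36.8%), 61 lower (all tested genes 24.0%) and 58 not called. The share of rises was thus near that of all tested genes. The median of 0.03 was -0.02 under TPM and -0.01 without SR9011+TGFb replicate 1. In this set of TGFb-lowered genes TGFb against vehicle was at a median of -1.24 and SR9011+TGFb against SR9011 at -0.72. The interaction was positive in 112 (all tested genes 16.6%) and negative in 13 (all tested genes 15.3%).

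Finally, SR9011+TGFb was compared directly with each of the other compounds under TGFb. Against CLK8+TGFb 3218 genes (28.5%) were higher and 2835 (25.1%) lower, 6053 in all (53.6%), a split that became 1886 higher and 4473 lower under TPM. Vcan, the proteoglycan versican, measured 14.1, 13.1 and 13.4 FPKM with SR9011+TGFb, 64.6, 65.2 and 60.3 with CLK8+TGFb and 17.2, 16.4 and 16.4 with TGFb, and was lower with SR9011 than with CLK8 by a log2 difference of -2.14 (SE 0.069, limma adjusted p = 2.43e-16). Il33 (-2.66), Trf (-2.29), Il6 (-2.22) and Vstm2a (-2.13) were lower as well, and Car6 (2.44), Avil (2.07), Tnnt2 (1.84), Klf2 (1.76) and Nbl1 (1.70) higher. Fibrillar collagens were lower than with CLK8+TGFb in 7 of 7 (median -0.93), and lysosome genes higher in 22 of 26 and lower in none (median 0.52).

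Against SB431542+TGFb, in which the TGFb receptor kinase is inhibited, 3690 genes (32.7%) were higher and 3605 (31.9%) lower, 7295 in all (64.6%). Pmepa1 was at 94.8, 100 and 99.1 FPKM with SR9011+TGFb and at 4.34, 3.7 and 3.73 FPKM with SB431542+TGFb, a log2 difference of 4.33 (SE 0.063, limma adjusted p = 1.24e-23). Ctsw, a protease gene at 37, 37 and 37.9 FPKM with TGFb, was at 32.6, 34 and 37.5 FPKM with SR9011+TGFb and 0.17, 0.18 and 0.03 FPKM with SB431542+TGFb (4.99). Both genes were high in all SR9011+TGFb libraries and low in all SB431542+TGFb libraries, with no overlap. Anxa8 (3.88), Car6 (3.97) and Fgf21 (3.84) were higher with SR9011. Id2, an inhibitor of basic helix-loop-helix factors, was at 4.54, 2.93 and 3.8 FPKM with SR9011+TGFb and at 48.3, 53.3 and 53.1 FPKM with SB431542+TGFb (-3.48). Aqp1 (-4.85), Lgals2 (-3.87), Ptn (-3.76) and Hp (-3.36) were lower with SR9011 too. Fibrillar collagens were higher than with SB431542+TGFb in 3 of 7 and lower in 4 (median -0.48), and 16 of 21 TGFb-SMAD genes were higher and 1 lower (median 0.64).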

How the data were processed

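RNA-seq of EMS404 cells gave 24 libraries in 8 groups of 3. The authors deposited FPKM with 2 decimals per gene. The submitters' processing notes name the build mm10 and the tools RSEM, DESeq2, Bowtie2 2.2.5 and HISAT2 2.0.4, without their roles. RNA came from either of 2 kits, per the labels' protocols, and samples with a low integrity number were discarded. Of 16620 lines, 16 were left out because 8 identifiers stood on 2 lines each; 16604 genes remained, named by GENCODE M21 (GRCm38), 43 of them without a symbol. Values were tested as log2(FPKM + 1), which understates changes of low genes, with limma 3.58.1 in R 4.3.3 (trend and robust moderation, all 8 groups in 1 fit, 16 residual degrees of freedom, 2-sided), over 11297 genes with at least 1 FPKM in 3 libraries, adjusted by Benjamini-Hochberg at 0.05. Depth per library is unknown. The fit was tested on simulated data. A fold change of a low gene is bounded by the pseudocount of 1.

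The members and the 39 gene lists were chosen with earlier results of these data known. Genes were named by rule: the 12 largest called rises and falls with non-overlapping groups (clone and predicted genes aside), up to 4 members per list with the smallest adjusted p, fixed clock, fibrosis and stress genes, the 6 largest interactions and the 5 largest direct differences each way. Of these 196 genes 142 had a RefSeq promoter window; Npas2 was not tested. Alternatives were other pseudocounts, filters, scalings, fits, a replicate block and leaving out each library. Python 3.11.15, numpy 2.4.6, pandas 2.3.3 and matplotlib 3.10.9 were used. Some named genes are not reported here.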

Additional observations from a re-analysis of the deposited data

Results flagged for a closer look

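For 12 genes the SR9011 difference with TGFb differed from that without TGFb by the interaction test of limma, 6 in each direction, and these are the largest such differences; groups of 3 are too small for a test of single libraries. On the log2 scale the interaction was 3.15 for Angptl7, which fell far more without TGFb (-4.36) than with it (-1.21), with SR9011+TGFb replicate 2 at 4.8 FPKM beside 12 and 9.6. It was 2.45 for Mgp and 2.05 for Tnnt2, both higher with SR9011 only under TGFb. The protease gene Htra3 had 2.12, from -1.37 without to 0.75 with TGFb. Nrep had 1.89, from -1.95 to -0.05, and its SR9011+TGFb libraries overlapped those of TGFb. Defb25 had 1.84 with values of 0, 1.74 and 0.87 FPKM with SR9011+TGFb and 0 in the 3 TGFb libraries, and it missed the threshold in 9 of the 12 fits that left out 1 library. In the other direction Cdsn had -1.87, from 3.23 to 1.36, and Trib3 -1.75, Fgf21 -1.73 and Lhfpl2 -1.66 rose with SR9011 in both settings and less under TGFb. Avil had -1.63, from 4.63 to 3.0. Il1rl1, the receptor gene of interleukin-33, had -1.65: it was at 4.67, 4.31 and 3.92 FPKM with TGFb, at 0.31, 0.18 and 0.33 FPKM with SR9011+TGFb and under 0.5 FPKM with vehicle.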

How the results depend on the processing

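The number of called genes stayed within 1.5 times of its value under every alternative run, with 1 exception: against CLK8+TGFb, TPM gave 1886 genes higher and 4473 lower in place of 3218 and 2835. Leaving out 1 library at a time gave 6299 to 6445 called genes for SR9011+TGFb against TGFb, 2961 to 4111 for the interaction, 5338 to 5567 against CLK8+TGFb and 6774 to 6940 against SB431542+TGFb. The replicate numbers were not counted as pairing the samples, since same-numbered SR9011+TGFb and TGFb libraries had residual correlations of 0.0278, 0.127 and 0.116, and a fit with the replicate block called 6940 genes (6871 without it). TGFb replicate 1 correlated best with SR9011+TGFb replicate 3 (0.0412), not with its own number. Of 196 named genes, 188 kept their side of the threshold in every alternative. Clock, Nr1d2, Tef and Bhlhe40 lost it in at least 1, and Dbp, Lox, Tgfbr1 and Defb25 passed in at least 1; Defb25 as interaction was lost in most fits without 1 library. No called gene among those named changed sign. List medians moved by more than the replicate spread in 56 of 569 list and alternative pairs, 26 of them under TPM. The unknown read depth limits what can be said of genes near 1 FPKM, where the pseudocount shrinks differences.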
